A study of Homo sapiens with 40 samples.

Results

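The small nucleolar RNA (snoRNA) host transcripts GAS5, SNHG1, SNHG5, SNHG6, SNHG7, SNHG8, SNHG12, SNHG15, SNHG16 and ZFAS1 were followed through 40 RNA-Seq libraries of HEK293 cells, an established human embryonic kidney line. They were chosen by symbol, as noncoding hosts of the TOP type, and make up 10 of the 55765 gene symbols counted. Each symbol had a row in every count file, and all 10 passed the filter on low counts in each comparison.

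The libraries formed 12 groups. An RNA immunoprecipitation experiment (RIP), with no siRNA, gave 3 libraries of total RNA and 3 of the RNA held by an antibody (IP) to each of the endogenous proteins eIF4A1, eIF4A2 and DDX6. For the sucrose gradients, cells were transfected with control siRNA or with an siRNA that targets CNOT1, on which the other subunits of the Ccr4-Not deadenylase complex assemble. Each of these gave 4 libraries of input RNA, 4 of gradient fractions 1 to 5 (subpolysomal) and 4 of fractions 6 to 11 (polysomal), the fractions being pooled. Cells with control siRNA or with siRNAs against TNRC6A and TNRC6B, which link Argonaute to Ccr4-Not, gave total RNA with 2 libraries per group. Depletion by siRNA is transient and leaves some of the target. No mock IP was among the libraries, so each IP was set against total RNA and against the other IPs. The gradient lysates contained cycloheximide, which holds ribosomes on RNA, and were cleared of nuclei before loading.

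In snoRNA host genes the snoRNAs lie in the introns and are released after splicing, while the joined exons leave the nucleus as a separate transcript. In noncoding hosts the exons carry only short reading frames, so that ribosomes reach a stop codon early, and several such transcripts are known substrates of nonsense-mediated decay (NMD), the translation-dependent removal of RNA with early stop codons. Many hosts start with a C followed by a run of pyrimidines, the 5′ terminal oligopyrimidine (TOP) motif that they share with ribosomal protein mRNAs and that ties translation to growth signals. Ccr4-Not shortens poly(A) tails, eIF4A1 is the helicase of the cap-binding complex, eIF4A2 is its close paralog, and DDX6 is a partner of Ccr4-Not in repression and decay.

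The 5′ starts show how far the TOP motif can be read from the annotation. Each line gives 30 bases of RefSeq sequence on GRCh38.p14 in the direction of the transcript, 10 before the annotated start and 20 from it. Capitals mark a C and the 4 or more pyrimidines that follow it. Where several such runs lay near the start, only the one at the start, or else the longest, is in capitals.
SNHG12: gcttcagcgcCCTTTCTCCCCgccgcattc
SNHG5: gcacttcggtCTTTTacgtcggccttcgcg
ZFAS1: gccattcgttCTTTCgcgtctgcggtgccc
SNHG8: ctcggCCTTTCacattcgggaagcgtcggg
SNHG7: CCTTCTCgtcctctgcgtgcgccggaggct
SNHG16: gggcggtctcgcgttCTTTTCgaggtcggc
SNHG1: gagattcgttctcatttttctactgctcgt
A run opened exactly at the annotated start in SNHG12, SNHG5 and ZFAS1, which are 3 of the 8 hosts with an entry (37.5%), against 4.07% of the 35116 genes in the table. When the run could open within 10 bases of the start on either side, 6 of 8 hosts (75%) and 33.5% of all genes held one on the transcribed strand. In SNHG8 it began 5 bases before the start and in SNHG16 at base 6. In SNHG7 the longest run began 10 bases before the start, at the edge of the window. A shorter match in SNHG7, left in lowercase, opened at the base just before the start. Neither SNHG1 nor GAS5 held a run in this window. The annotated start is that of 1 transcript per gene, SNHG15 had no entry, and SNHG6 was not used here. The motif as searched was C followed by at least 4 bases that are C or T, and a match is a description of these letters only.

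The hosts lie on 9 chromosomes, and each was annotated as a long noncoding RNA in GENCODE release 44 on GRCh37 (hg19). GAS5 (ENSG00000234741) spans chr1:173827697-173838020 on the minus strand and contains 11 snoRNAs by RefSeq positions, the most of the 10 hosts, while SNHG1 (chr11:62619450-62623425, minus) contains 9. SNHG5 (chr6:86360209-86388650, minus), SNHG7 (chr9:139615818-139622636, minus), SNHG12 (chr1:28905050-28909644, minus) and SNHG15 (chr7:45022618-45026560, minus) hold from 1 to 4. SNHG8 (chr4:119199858-119206471, plus), SNHG16 (chr17:74553809-74667067, plus) and ZFAS1 (chr20:47894715-47916137, plus) hold 1, 3 and 3, and SNHG6, on chromosome 8, holds 1. The exons of 7 hosts overlapped another annotated gene on the opposite strand, for example GAS5-AS1 at GAS5, PRSS12 at SNHG8 and ZNFX1 at ZFAS1. The library kit keeps the strand, but the strand option of the counting was not stated, so reads of these overlaps could not be assigned with certainty. On the same strand, SNHG5 shared 943 nt of exon with the protein-coding gene ENSG00000271793 and 715 nt with the pseudogene PKMP3.

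Libraries held 15353317 to 46018900 counts in all, and a single host had between 99 and 44175 counts in a library. Levels are given as CPM, counts scaled to 1e6 per library, on library totals after TMM scaling within each experiment, so values are shares of a library and not amounts per cell. HEK293 cells express neurofilament and kidney progenitor genes, and 5 of 6 such markers, with NEFL, NEFM, EYA1 and LHX1 among them, reached 1 CPM in all 40 libraries. The exception was PAX2, which ran from 0.0984 to 1.57 CPM and reached 1 CPM in 7 libraries. Of 6 genes of other tissues, PTPRC, CD3E, HBB and ALB stayed below 1 CPM throughout, COL1A1 ran from 1.14 to 18.1 CPM, and PECAM1 was not analysed here. CNOT1 fell from 687, 711, 662 and 628 to 41.4, 36.8, 39.95 and 40.4 CPM in input. Both polysomal libraries of replicate 3 went against their labels. The library labelled control siRNA had 28.3 CPM of CNOT1 where its group otherwise had 469.9 to 501 CPM, and the library labelled CNOT1 siRNA had 631 CPM where the others had 24.01 to 31.6. The tests of the hosts that use polysomal libraries are therefore given as labelled and without both. TNRC6A was at 178 and 189 CPM with control siRNA and at 40.5 and 64.7 with TNRC6A/B siRNA, and TNRC6B at 67.6 and 73.1 and 17.7 and 26.3.

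The 10 transcripts differed widely in level. In control siRNA input, SNHG16 stood highest at 52.4 ± 2.00 CPM per kb of annotated exon (SD, n = 4). GAS5 (31.1 ± 2.04) and SNHG1 (29.7 ± 0.62) followed with overlapping libraries, then SNHG15 (21.0), SNHG6 (14.5), SNHG5 (11.1) and SNHG7 (7.45). SNHG12 (6.17) and ZFAS1 (6.13) overlapped each other, and SNHG8 was lowest at 4.60 ± 0.18 CPM per kb. The other neighbours in this order did not overlap. Lengths were the union of exons in a recent annotation, longer than the models used for counting. With the longest or the canonical transcript SNHG16 stayed first, GAS5 second and SNHG8 last. Some ranks between them moved, with SNHG5 at rank 6 by exon union, 5 by the longest and 3 by the canonical transcript. The values depend on the length too, and SNHG16 had 83.9 and 607.6 CPM per kb with these transcripts.

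To describe how the host transcripts divide between the pooled fractions, polysomal RNA was compared with subpolysomal RNA from the same type of gradient. The pools do not show how many ribosomes a transcript carried, and subpolysomal RNA is not the same as RNA without ribosomes. Every host was far lower in polysomal RNA. Together the 10 took 0.427 to 0.472% of the counts in control siRNA subpolysomal libraries, 0.0866 to 0.0934% in input and 0.0295 to 0.0598% in polysomal libraries, or 0.0457 to 0.0598% without the polysomal library of replicate 3. SNHG5, host of the SNORD50 pair, had 784, 1022, 738 and 853 CPM in subpolysomal RNA and 28.1, 33.6, 14.5 and 41.4 CPM in polysomal RNA. GAS5, host of a series of box C/D snoRNAs and itself linked to growth arrest, had 719.7, 794, 703 and 649.5 CPM against 56.1, 54.8, 37.8 and 77.1. SNHG16, the highest of the 10 in control siRNA input, had 1367, 1582, 1199 and 1268 CPM against 184, 197, 128 and 232. No library of one fraction overlapped the other in any of the 10 transcripts. The share of all genes without overlap between groups was not counted, here or in the comparisons below.

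**Figure D1:**
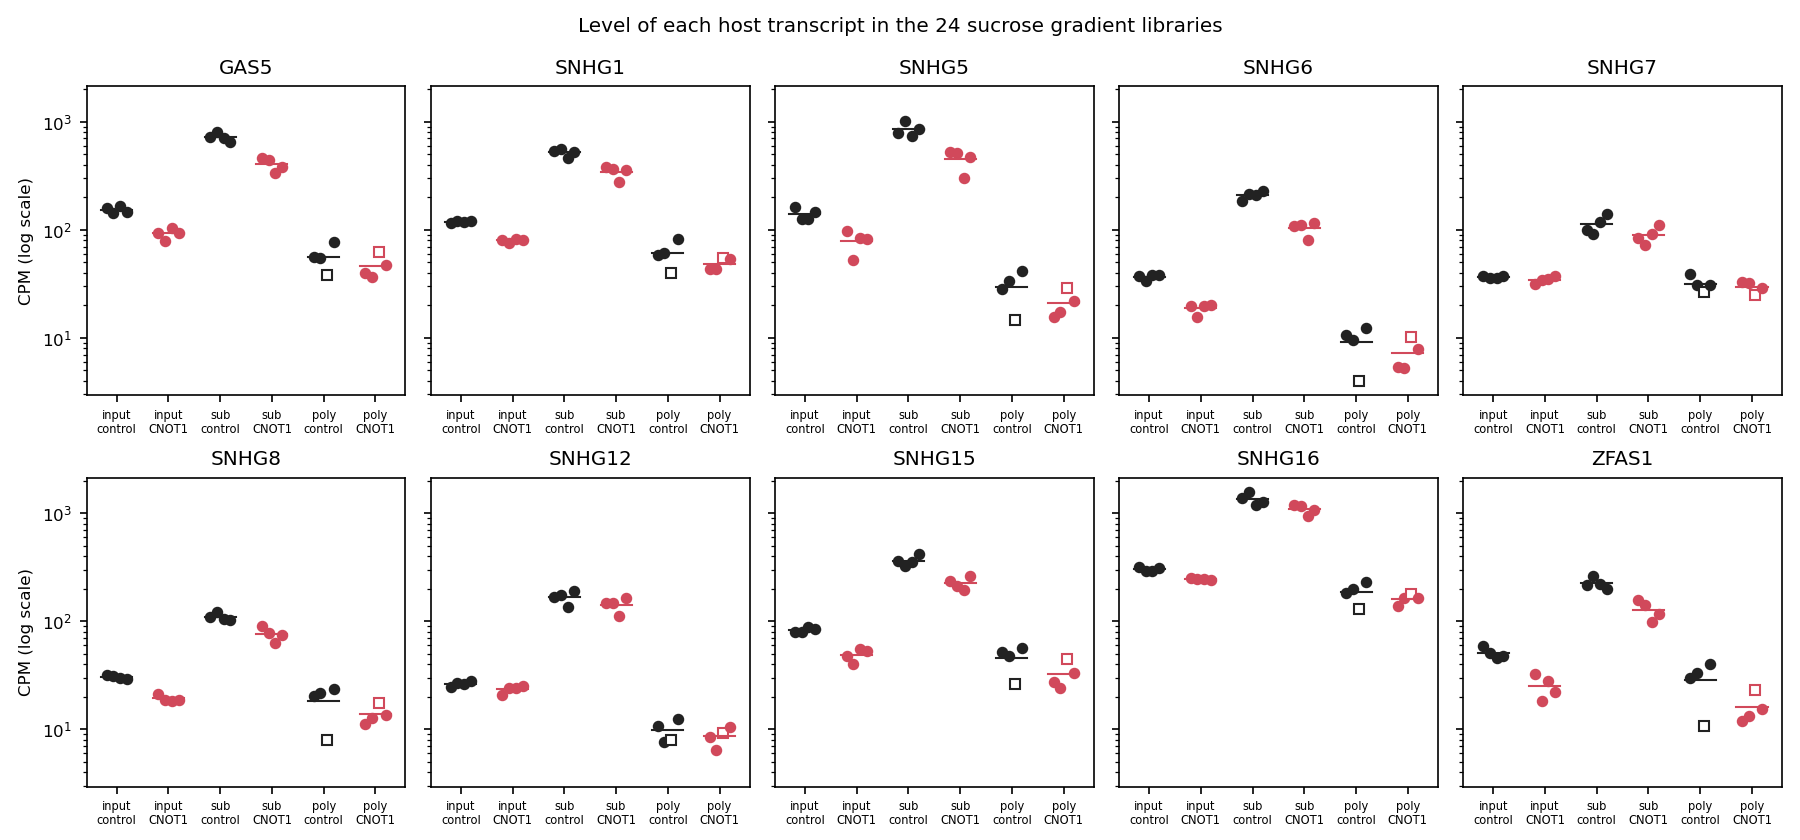
CPM of each host in the 24 gradient libraries on a logarithmic axis, 1 panel per transcript, with input, subpolysomal (sub) and polysomal (poly) RNA of control siRNA (black) and CNOT1 siRNA (red) cells. Points are libraries, bars are means of 4 and open squares are the 2 polysomal libraries of replicate 3 that go against their labels. Subpolysomal points stand above all polysomal points in every panel, and SNHG7 shows the smallest step.

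By edgeR's quasi-likelihood test with Benjamini-Hochberg adjustment, all 10 fell at an FDR below 0.05, while 34.9% of the 15500 genes tested were lower in polysomal RNA. SNHG5 had a log2 polysomal/subpolysomal value of -4.91 ± 0.32 (SE, FDR 6.72e-07), SNHG6 -4.58 ± 0.32 (SE, FDR 8.97e-07) and SNHG12, host of SNORD99, -4.16 ± 0.21 (SE, FDR 2.09e-07). These 3 lay within the lowest 1.1% of all genes by this value. GAS5 (-3.73), SNHG1 (-3.17), SNHG15 (-3.06), ZFAS1 (-3.03), SNHG16 (-2.93) and SNHG8 (-2.63) lay between the 1.72 and 5.57 percentiles. SNHG7 stood apart with the smallest step, -1.9 ± 0.19 (SE, FDR 7.43e-06), at the 11.3 percentile. Its libraries were 99.1, 91.05, 119 and 139 CPM in subpolysomal and 38.6, 30.9, 26.8 and 30.6 CPM in polysomal RNA. The median over the 10 was -3.11 beside -0.06 over all genes. Without both replicate 3 polysomal libraries all 10 were again lower, from -4.65 for SNHG5 to -1.78 for SNHG7, with 36.8% of 15893 genes lower.

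CNOT1 siRNA cells gave the same arrangement in their own gradients. All 10 hosts fell, from -4.49 ± 0.24 (SE, FDR 2.98e-08) for SNHG5 to -1.66 ± 0.15 (SE, FDR 8.71e-07) for SNHG7, and SNHG12 (-4.09), SNHG6 (-3.91), GAS5 (-3.19), ZFAS1 (-3.07), SNHG1 (-2.88), SNHG15 (-2.86), SNHG16 (-2.82) and SNHG8 (-2.54) lay between them, with a median of -2.98 against -0.02 over all genes and 34% of 15654 genes lower. SNHG12 had 146, 147, 111 and 163 CPM in subpolysomal and 8.54, 6.42, 9.26 and 10.5 CPM in polysomal RNA. ZFAS1, host of the SNORD12 snoRNAs, had 156, 143, 97.6 and 116 and 11.98, 13.3, 23.2 and 15.3. In both transcripts the lowest subpolysomal library stood above the highest polysomal one. Without both replicate 3 polysomal libraries the values ran from -4.67 to -1.57 and all 10 stayed lower, with 36.3% of 16148 genes lower.

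**Figure D2:**
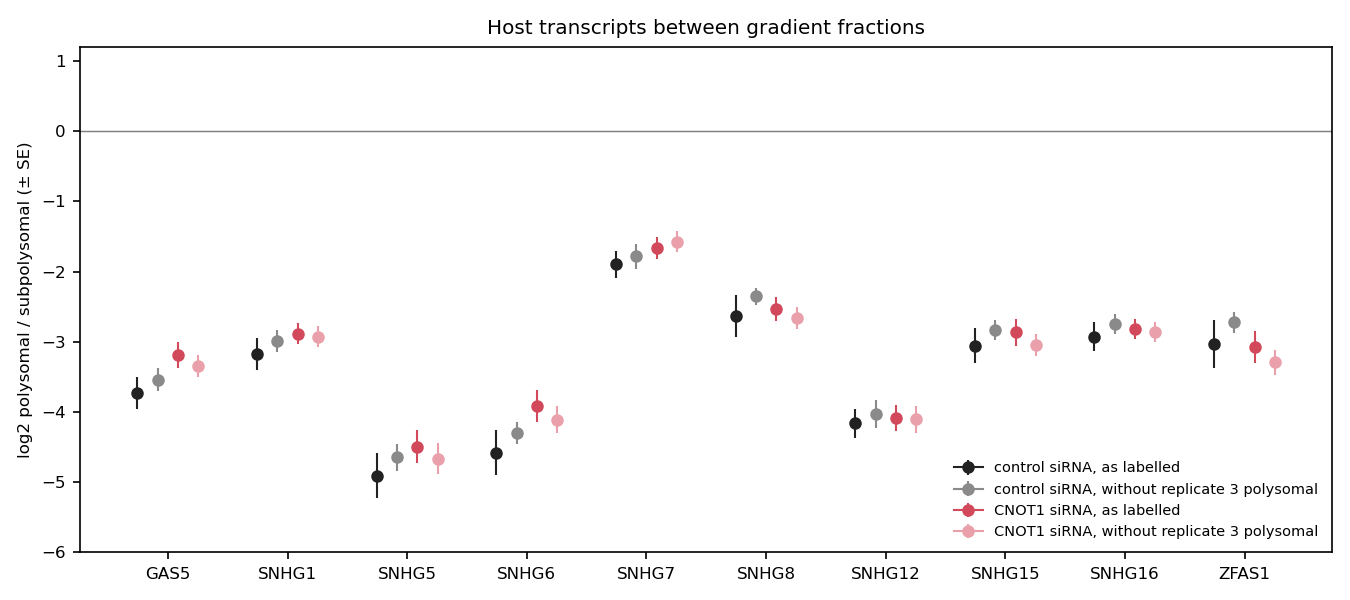
Log2 polysomal over subpolysomal level of each host (± SE) from edgeR, in control siRNA (black, grey) and CNOT1 siRNA (red, pink) gradients, with all labelled libraries or without the 2 replicate 3 polysomal libraries. All points lie below 0, from -4.91 for SNHG5 to -1.57 for SNHG7, and all were called (filled).

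The next comparison asked how depletion of CNOT1 alters the host transcripts in total input RNA. Of the 10, 8 fell and none rose, beside 30% of the 15686 genes tested that were lower. ZFAS1 fell most, from 59.6, 50.4, 45.8 and 48.1 to 32.2, 18.2, 28.2 and 22.2 CPM, a log2 change of -1.0 ± 0.13 (SE, FDR 9.75e-06). SNHG6 fell from 37.02, 33.8, 38.1 and 38.1 to 19.7, 15.5, 19.6 and 20.3 CPM (-0.95 ± 0.09 SE, FDR 1.97e-07). SNHG5 fell from 161, 126, 127 and 146 to 98.1, 52.5, 83.8 and 81.9 CPM (-0.81 ± 0.14 SE, FDR 9.48e-05). In all 3 the control and CNOT1 siRNA libraries did not overlap. SNHG15 (-0.74), GAS5 (-0.72), SNHG8 (-0.64) and SNHG1 (-0.54) fell by intermediate amounts, and SNHG16 by the least of those called, -0.29 ± 0.05 (SE, FDR 1.15e-04).

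SNHG7 and SNHG12 were the members not called in input. SNHG7 had 37.4, 35.6, 35.7 and 37.3 CPM with control and 31.8, 34.3, 34.7 and 37.4 with CNOT1 siRNA, and the groups overlapped (-0.06 ± 0.06 SE, FDR 0.428). SNHG12 had 24.5, 27.03, 26.1 and 27.8 and 21.02, 24.4, 24.1 and 25.02 CPM, also overlapping (-0.14 ± 0.07 SE, FDR 0.116). With the replicate number as a block, which the pairing check allowed here, SNHG12 passed the test as well (-0.14 ± 0.06 SE, FDR 0.0403), and 32.9% of all genes were then lower. The median over the 10 was -0.68, beside -0.0021 over all genes. In bulk RNA, fewer expressing cells and less RNA per cell cannot be told apart. The libraries were made from poly(A) RNA, and Ccr4-Not shortens poly(A) tails. Whether CNOT1 siRNA changed the capture of these transcripts, in input or in the fractions below, was not tested.

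Within the gradient libraries the mean CPM of each host was highest in subpolysomal RNA. In that fraction 7 members fell after CNOT1 siRNA and none rose, beside 15.2% of 15823 genes lower. GAS5 fell from 719.7, 794, 703 and 649.5 to 462, 438, 332 and 382 CPM (-0.80 ± 0.12 SE, FDR 0.00183). SNHG6 fell from 185, 215, 208 and 230.1 to 108, 111, 80.1 and 116 CPM (-0.98 ± 0.13 SE, FDR 0.00118). Both pairs of groups were clear of each other. SNHG5 (-0.88), ZFAS1 (-0.78), SNHG15 (-0.66), SNHG1 (-0.58) and SNHG8 (-0.49) completed the 7. SNHG16 (-0.28 ± 0.12 SE, FDR 0.0950), SNHG7 (-0.29 ± 0.18 SE, FDR 0.240) and SNHG12 (-0.20 ± 0.14 SE, FDR 0.289) did not pass the test. With the replicate block, allowed here by the pairing check, all 10 were called lower, among them SNHG16 at an FDR of 0.0110, SNHG7 at 0.00108 and SNHG12 at 0.0117, and 31.2% of all genes were lower.

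In polysomal RNA as labelled, edgeR called no member and no gene at all (0% of 14474), although 38 genes were higher and 61 lower at an unadjusted p under 0.05, the latter with 1 host, ZFAS1 (-0.85), and DESeq2 likewise called no member. ZFAS1 had 30.1, 33.4, 10.8 and 40.4 CPM with control and 11.98, 13.3, 23.2 and 15.3 with CNOT1 siRNA, where the third value of each group is the library against its label. SNHG15 had 52.4, 47.5, 26.2 and 56.99 and 27.6, 24.2, 44.9 and 33.3 CPM. In both transcripts the third control library lay below the other 3 of its group, and the third CNOT1 siRNA library above the other 3. Without these 2 libraries 8 members fell, beside 18.9% of 14514 genes. They were ZFAS1 (-1.36 ± 0.14 SE, FDR 2.03e-04), SNHG5 (-0.91), SNHG15 (-0.89), SNHG6 (-0.82), SNHG8 (-0.81), GAS5 (-0.62), SNHG1 (-0.53) and SNHG16 (-0.41). SNHG12 (-0.29 ± 0.22 SE, FDR 0.314) and SNHG7 (-0.11 ± 0.12 SE, FDR 0.480) were again not called. The labels do not say whether replicates came from separate cultures, so the tests measure only the spread between these libraries.

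**Figure D3:**
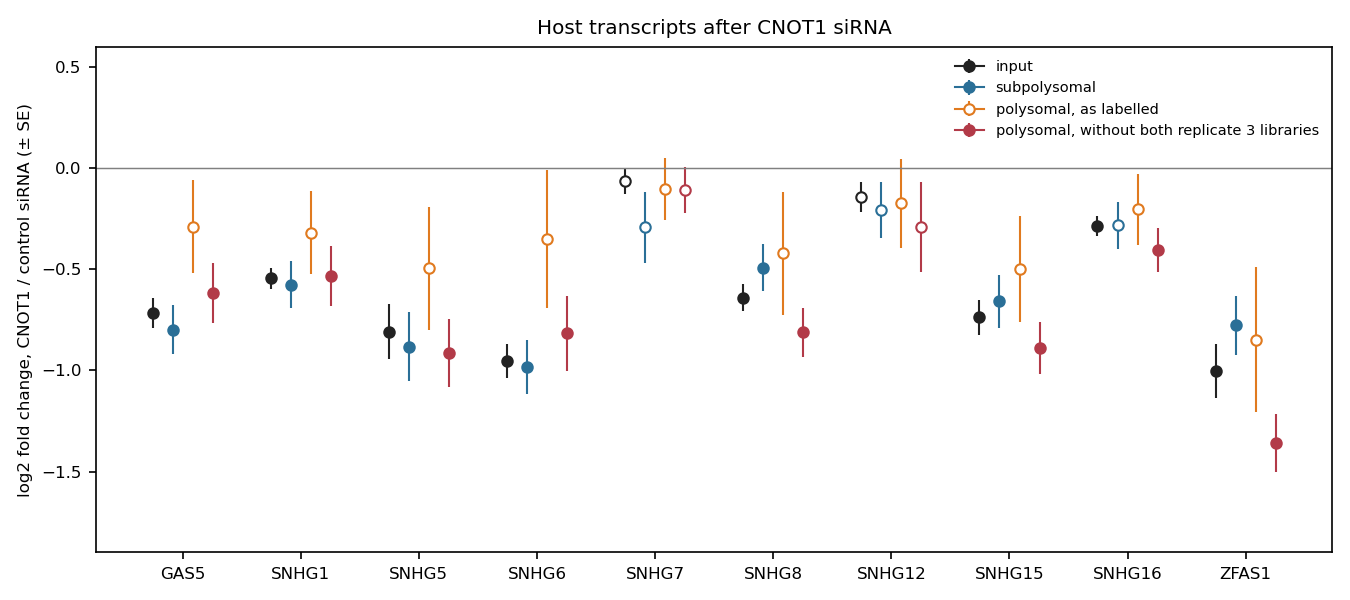
Log2 change of each host after CNOT1 siRNA (± SE) in input, subpolysomal and polysomal RNA, the last with all labelled libraries (orange) and without both replicate 3 libraries (dark red). Filled points have an FDR below 0.05. ZFAS1 reaches -1.0 in input, and SNHG7 stays between -0.29 and -0.06 with no filled point.

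Without both replicate 3 polysomal libraries, the mean CPM of 7 of the 10 hosts declined in 1 order, from subpolysomal control to subpolysomal CNOT1, input control, input CNOT1, polysomal control and polysomal CNOT1 siRNA. In the other 3, polysomal control stood above input CNOT1, namely in ZFAS1 (34.6 against 25.2 CPM), SNHG15 (52.3 against 49.1 CPM) and SNHG8 (21.8 against 19.4 CPM). As labelled, 9 hosts had this order and ZFAS1 did not. The order restates the steps given above, and how many of all genes share it was not counted. From 0 to 4 of the 5 neighbouring pairs overlapped in their libraries without those 2, with 4 in SNHG7.

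Whether CNOT1 siRNA moves host transcripts between fractions was tested as an interaction, that is, as the log2 effect among polysomal libraries less the effect among subpolysomal ones. No member was called by edgeR, DESeq2 or any other setting, beside 0.951% of 16506 genes as labelled and 9.44% of 16805 without both replicate 3 polysomal libraries. At an unadjusted p under 0.05, 0 members passed as labelled and 1 did without those libraries. GAS5 had a value of 0.54 ± 0.27 (SE, FDR 0.344) as labelled and 0.22 ± 0.20 (SE, FDR 0.558) without them, with a 95% interval (normal approximation) from -0.18 to 0.62 in the latter. SNHG6 had 0.67 and 0.21. In the same order SNHG5 had 0.42 and 0.0095, SNHG1 0.30 and 0.084, SNHG7 0.22 and 0.22, and SNHG15 0.19 and -0.19. SNHG16 had 0.12 and -0.080, SNHG8 0.11 and -0.28, and SNHG12 0.070 and -0.045. ZFAS1 had -0.03 and -0.54 ± 0.23 (SE, FDR 0.145), with a 95% interval from -0.98 to -0.10 without the libraries. The members' median was 0.21 as labelled and -0.02 without, beside 0.06 and 0.07 over all genes.

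Protein-coding hosts of snoRNAs and other TOP mRNAs gave different counts in that same fit. Of 36 coding hosts, 14 rose as labelled and 18 without the 2 libraries, beside 0.576% and 5.47% of all genes, with medians of 0.87 and 0.71. Of 13 non-ribosomal TOP mRNAs tested, 6 and then 9 rose, with medians of 0.90 and 0.88. All 7 other noncoding hosts that were tested went uncalled as labelled (median 0.38), and 1 fell without the libraries (median -0.08). In control cells the coding hosts had a median log2 polysomal/subpolysomal value of -1.60 (31 of 36 lower), and the TOP mRNAs -0.96 (11 of 13 lower). Without the 2 libraries these medians were -1.41 and -0.91, with the same counts lower. RPS2 (-3.09) and RPSA (-2.99), both components of the small ribosomal subunit, were the lowest of the coding hosts, and nucleolin NCL (2.35) and the initiation factor EIF4G2 (1.41) were the highest. Among TOP mRNAs, PABPC1, the poly(A)-binding protein, had -3.69 and TPT1 -2.46, while GNB2L1 (-0.56) and NAP1L1 (-0.52) were the nearest to 0 among those called. The difference between the lists was not itself tested.

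**Figure D4:**
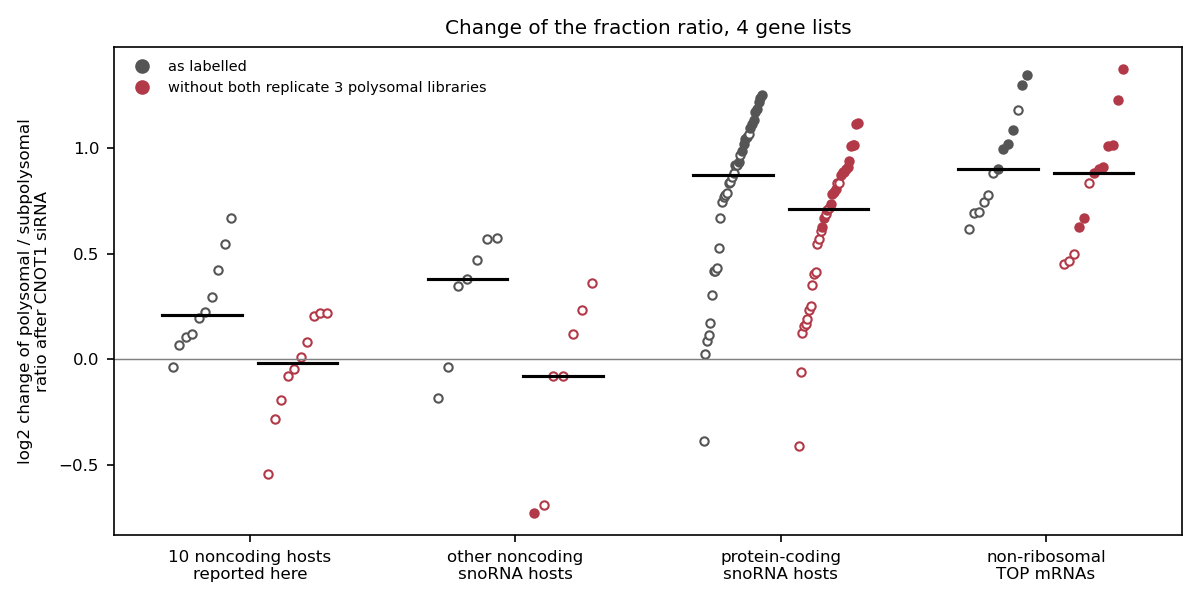
Log2 change of the polysomal/subpolysomal ratio after CNOT1 siRNA for the 10 hosts, 7 other noncoding hosts, 36 protein-coding hosts and 13 non-ribosomal TOP mRNAs, each gene as a point and each list's median as a bar, as labelled (grey) and without both replicate 3 polysomal libraries (red). Filled points have an FDR below 0.05. The 10 hosts have medians of 0.21 and -0.02 and no filled point, and the coding hosts 0.87 and 0.71.

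Association with the helicases was read from the RIP libraries. The 3 IPs share the same total RNA libraries, so their values are set side by side and not counted against each other. The 10 hosts took 0.107 to 0.119% of counts in total RNA, 0.227 to 0.306% in the eIF4A1 IP, 0.201 to 0.267% in the eIF4A2 IP and 0.221 to 0.328% in the DDX6 IP. SNHG7 had 92.2, 94.2 and 71.9 CPM in total RNA and 320.1, 367 and 209 CPM in the eIF4A1 IP, 233, 284 and 234 in the eIF4A2 IP and 241, 337 and 223 in the DDX6 IP. SNHG16 had 255, 274 and 244 CPM in total RNA, and 586, 949 and 721, then 448, 691 and 573, then 659, 1009 and 781 in the same order of IPs. In both, every IP library stood above every total RNA library.

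In the eIF4A1 IP, 7 of 10 hosts were higher than in total RNA and none was lower, beside 26.1% of 17474 genes higher. They were SNHG7 (1.79 ± 0.22 SE, FDR 2.70e-05), SNHG16 (1.54), SNHG8 (1.18), ZFAS1 (0.82), SNHG1 (0.80), SNHG6 (0.66) and SNHG15 (0.61). GAS5 missed the threshold with 0.51 ± 0.21 (SE, FDR 0.0591), SNHG5 had 0.32 and SNHG12 -0.09. With the replicate number as a block, which the pairing check allowed in this experiment, GAS5 was called as well (FDR 0.0139), with 32.4% of genes higher. The median over the 10 was 0.73, against 0.04 over all genes.

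In the eIF4A2 IP, 6 hosts were higher and none was lower, beside 24.5% of genes higher. SNHG7 (1.54 ± 0.22 SE, FDR 7.79e-05), SNHG16 (1.15), SNHG1 (1.10), SNHG12 (0.85 ± 0.23 SE, FDR 0.00777), SNHG8 (0.80) and SNHG15 (0.76) passed. GAS5 (0.52 ± 0.21 SE, FDR 0.0584), SNHG6 (0.33), ZFAS1 (0.27) and SNHG5 (-0.22) did not. With the block GAS5 was called here too (FDR 0.0134), with 30.4% of genes higher. In the DDX6 IP, 9 hosts were higher, beside 22.7% of genes. SNHG7 (1.63), SNHG8 (1.25), SNHG6 (1.09), ZFAS1 (0.97), GAS5 (0.89), SNHG5 (0.83) and SNHG1 (0.81) lay between the lowest and highest values called, 0.78 for SNHG15 and 1.66 ± 0.22 (SE, FDR 7.76e-05) for SNHG16. SNHG12 was the exception with -0.04 ± 0.23 (SE, FDR 0.901), and its libraries were 42.8, 46.6 and 50.2 CPM in total RNA and 39.4, 56.9 and 39.5 in the DDX6 IP. The medians over the 10 were 0.78 and 0.93 in the eIF4A2 and DDX6 IPs, against 0.01 over all genes in both.

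**Figure D5:**
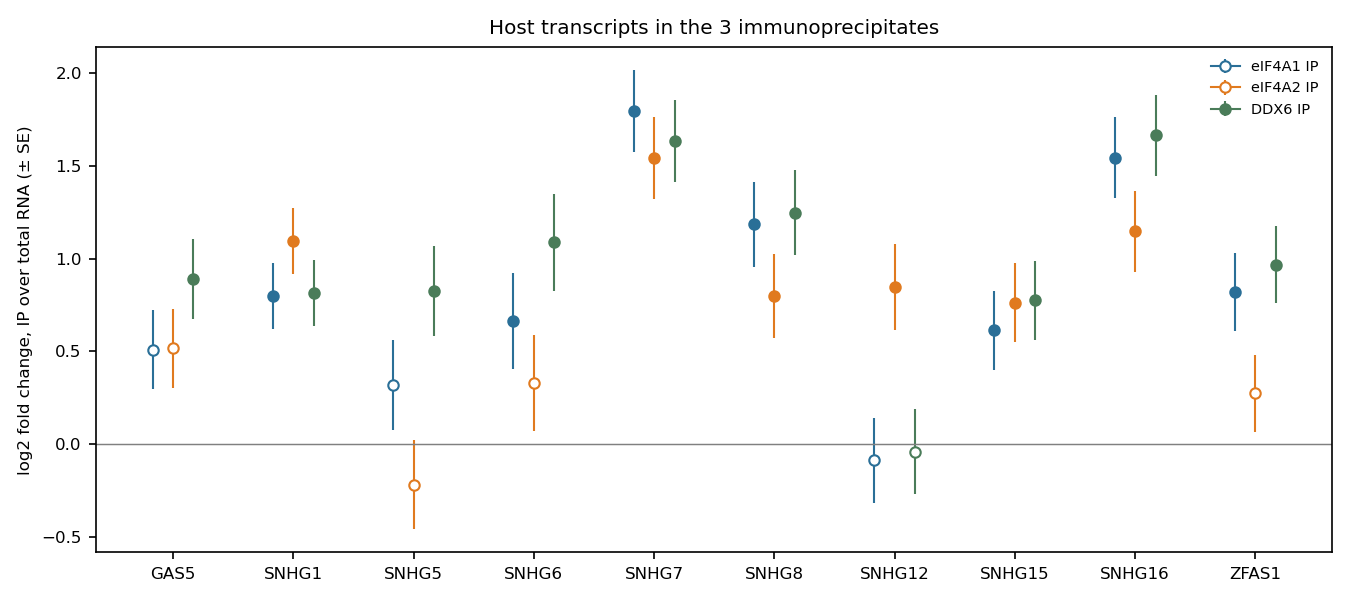
Log2 fold change of each host in the eIF4A1 (blue), eIF4A2 (orange) and DDX6 (green) IPs over total RNA (± SE, 3 libraries per group, 1 edgeR fit). Filled points have an FDR below 0.05. SNHG7 and SNHG16 lie above 1 in all 3 IPs, and SNHG12 lies above 0 only in the eIF4A2 IP, at 0.85.

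Direct tests between IPs separated a few hosts. Between the eIF4A2 and DDX6 IPs, SNHG12 was higher with eIF4A2, beside 9.82% of genes higher, and SNHG5 and ZFAS1 were lower, beside 11.3% lower. SNHG12 had 63.7, 79.2 and 108 CPM in the eIF4A2 IP against 39.4, 56.9 and 39.5 CPM in the DDX6 IP (0.89 ± 0.23 SE, FDR 0.0182). SNHG5 had 128, 174 and 132 against 226, 417 and 253 CPM (-1.04 ± 0.24 SE, FDR 0.0113). ZFAS1 had 70.9, 91.5 and 89.2 against 108, 181 and 119 CPM (-0.69 ± 0.21 SE, FDR 0.0327). The libraries of the 2 IPs did not overlap in any of these 3. The hosts not called were SNHG6 (-0.76), SNHG16 (-0.52), SNHG8 (-0.45), GAS5 (-0.37), SNHG7 (-0.093), SNHG15 (-0.013) and SNHG1 (0.28). With the block SNHG6 (-0.72 ± 0.13 SE, FDR 7.57e-04), SNHG16 (-0.52) and SNHG8 (-0.42) were lower with eIF4A2 too, beside 18.5% of genes higher and 22% lower. Leaving out 1 library left from 1 to 4 hosts called, and only 1 without eIF4A2 IP replicate 1 (SNHG12), without eIF4A2 IP replicate 3 (SNHG5) or without DDX6 IP replicate 2 (SNHG12).

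Between the eIF4A2 and eIF4A1 IPs no host was called by edgeR, beside 1.06% of genes, although 3 had an unadjusted p under 0.05 and DESeq2 called SNHG12. SNHG12 had 46.6, 53.96 and 30.9 CPM in the eIF4A1 IP, below all 3 eIF4A2 values (0.93 ± 0.23 SE, FDR 0.0780). The other values were ZFAS1 (-0.55), SNHG5 (-0.54), SNHG16 (-0.40), SNHG8 (-0.39), SNHG6 (-0.34), SNHG7 (-0.25), GAS5 (0.0065), SNHG15 (0.15) and SNHG1 (0.30). With the block SNHG12 was higher with eIF4A2 (0.93 ± 0.21 SE, FDR 0.0120) and SNHG5 (-0.52) and ZFAS1 (-0.53) were lower, beside 15.8% of genes called in either direction. Between the DDX6 and eIF4A1 IPs no host was called by edgeR or DESeq2 (0.0916% of genes called by edgeR, 0 members at an unadjusted p under 0.05). The values were SNHG5 (0.51), SNHG6 (0.42), GAS5 (0.38), SNHG15 (0.16), ZFAS1 (0.15), SNHG16 (0.12), SNHG8 (0.063), SNHG12 (0.047), SNHG1 (0.014) and SNHG7 (-0.16). With the block only SNHG5 was called, at 0.49 higher with DDX6, beside 9.9% of genes.

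Depletion of TNRC6A and TNRC6B gave no called host and no called gene by edgeR (0% of 14064), with 173 genes higher and 116 lower at an unadjusted p under 0.05 and no member among them. DESeq2 also called no member. With the replicate number as a block 5.43% of genes were called but no host, and 4 hosts, GAS5, SNHG1, SNHG5 and SNHG15, had an unadjusted p under 0.05. GAS5 had 123 and 253 CPM with control siRNA and 90.5 and 200.1 with TNRC6A/B siRNA, a log2 value of -0.37 ± 0.52 (SE, FDR 1.000). SNHG16 had 370.1 and 291 and 409 and 331 CPM (0.16 ± 0.22 SE, FDR 1.000). In GAS5 the gap between libraries of the same group exceeded that between the groups. The other values, none of them called, were SNHG5 at -0.38, SNHG1 at -0.31, SNHG15 at -0.29, SNHG12 at -0.27, SNHG8 at -0.26, ZFAS1 at -0.20, SNHG7 at -0.18 and SNHG6 at -0.17. With 2 libraries per group the SEs of the log2 values ran from 0.22 to 0.52.

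Of 12 other noncoding hosts on the list, 7 had enough counts to be tested (SNHG3, SNHG9, SNHG10, SNHG11, SNHG17, DANCR and EPB41L4A-AS1). All 7 were lower in polysomal than subpolysomal RNA with control siRNA, from -3.98 ± 0.31 (SE, FDR 1.48e-06) for SNHG3 to -1.83 for SNHG11. All 7 fell after CNOT1 siRNA in input, from -1.46 ± 0.16 (SE, FDR 1.39e-06) for SNHG9 to -0.37 for SNHG11 (median -0.81), and all 7 in subpolysomal RNA (median -0.73). Of the 36 protein-coding hosts 29 fell and 1 rose in input (median -0.57), and 28 fell and 1 rose in subpolysomal RNA (median -0.99). In the IPs SNHG3 was lower than in total RNA in all 3, at -1.17 with eIF4A1, -1.14 with eIF4A2 and -1.30 with DDX6. SNHG9, SNHG11, DANCR and EPB41L4A-AS1 were higher in all 3, SNHG17 was called with eIF4A2, and SNHG10 in none. Of the 36 protein-coding hosts 24 were lower with eIF4A1 beside 26.5% of all genes, 28 with eIF4A2 beside 25.8%, and 8 with DDX6 beside 23.3%, while 0, 2 and 0 were higher.

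Of 3 nuclear long noncoding RNAs tested, 2 were called lower in polysomal than in subpolysomal RNA of control cells. These were NEAT1 and MALAT1, with polysomal/subpolysomal values of -4.43 and -3.97, in the range of the hosts. The remaining nuclear RNA was not called in this comparison. In contrast to the hosts, the 3 nuclear RNAs tested were lower than total RNA in every IP, with medians of -1.57, -1.08 and -1.52. In polysomal against subpolysomal RNA of control cells 30.3% of all genes were higher as labelled and 31% without both replicate 3 polysomal libraries. Of 15 snoRNP proteins 9 were higher (11 without those libraries) and 1, NOP56 (-2.09), was lower in polysomal RNA, with RUVBL1 (1.84), GAR1 (1.26) and NUFIP1 (0.65) among the higher. NOP56, a core protein of box C/D particles, is itself encoded by a snoRNA host gene. Of 16 NMD factors 7 were higher and 3 lower in both fits, with EIF4A3 (1.80) and MAGOH (1.48) of the exon junction complex highest and CASC3 (-0.84) and SMG9 (-0.55) lowest. After CNOT1 siRNA in input, where 30.9% of all genes rose and 30% fell, 5 NMD factors rose and 5 fell (median -0.05), and 4 snoRNP genes rose and 6 fell (median -0.10). Of 12 regulators of TOP mRNAs 7 were higher (8 without those libraries) and 2 lower in polysomal RNA, with RPTOR (1.57) and CNBP (1.5) highest and EIF4EBP2 (-1.54) and TIA1 (-0.81) lowest, and 4 rose and 5 fell in input after CNOT1 siRNA.

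Across the 12 groups the hosts resembled each other. With each profile centred within its experiment, Pearson's r between 2 hosts had a median of 0.955 over 45 pairs (0.767 to 0.996). Each host's r with the mean profile of the other hosts ran from 0.863 for SNHG7 to 0.995 for GAS5. Among 8827 genes, the non-members most like the mean profile of all the hosts were C6orf48 (r = 0.997), EPB41L4A-AS1 (0.997), IDS, SEPW1, JPX, MYNN, RP11-295G20.2, RP11-31F15.1, ITGAE and NTAN1 (0.989). C6orf48 and EPB41L4A-AS1 are snoRNA hosts themselves. These values describe 12 group means that share libraries and normalisation, and the step between fractions dominates them.

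The snoRNAs inside the introns were barely seen in these libraries, which were made from poly(A) RNA. Of 37 snoRNAs within the 10 spans 22 had a row, of which 10 were at 0 in all 40 libraries and 4 had a count in every library. The largest were SNORD99 of SNHG12 with 1702 counts over 40 libraries, SNORD78 of GAS5 with 1104 and SNORD12 of ZFAS1 with 1009. Their hosts had 64980, 335939 and 99438 counts. The snoRNA products could therefore not be compared between groups.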

How the data were processed

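Poly(A) RNA of HEK293 cells was sequenced from stranded TruSeq libraries. The authors aligned reads with TopHat2 to hg19 and counted them per gene symbol with HTSeq (bcl2fastq 2.0 is also in the submitters' processing notes). The deposited files hold raw counts for 40 libraries and 55765 symbols, and the strand option of the counting is not given in the sources used here. A further deposited table of the authors' comparisons (log fold change, mean log CPM, likelihood ratio, p-value and FDR of each IP against total RNA) was not used.

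Counts were fitted with edgeR 4.0.16 (R 4.3.3, limma 3.58.1) using filterByExpr, TMM factors and two-sided quasi-likelihood F-tests over all genes, with calls made where the FDR (Benjamini-Hochberg) was below 0.05. The RIP fit used 12 libraries, each gradient fit the 8 compared libraries (16 for the interaction) and the TNRC6 fit 4, without a replicate block. SE is the log2 fold change divided by the square root of F. The fitting code was tested on counts simulated with a fixed spread and no replicate effect. That test does not give the power of these comparisons at the spread of the real libraries. Results were recomputed with a replicate block, with RLE factors, with DESeq2 1.42.0, without the filter, with other sets of libraries and without each library in turn.

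Pairing was checked by correlating, over all genes tested, how far libraries of the same number lay from the mean of their group. In the RIP comparisons r was 0.14 to 0.63, in input 0.13 to 0.24 and in subpolysomal RNA 0.47 to 0.63, each pair above 0.1, so the numbers were taken to pair these libraries. Each pair of libraries differed in its counts. The labels of 1 RIP total RNA library give 2 replicate numbers, and its title was used.

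Every host is named in each comparison. From the other lists the genes named are the 2 lowest and 2 highest called polysomal/subpolysomal values with control siRNA, and every called noncoding host. The most alike genes are the first 10 by r among those with a mean of at least 10 CPM in each experiment (log2 CPM, prior count 2). The hosts, lists and tests were chosen with earlier results of these data known. Sequences are from RefSeq (GRCh38.p14), where the entries of 8 of the 10 hosts were used, and positions from GENCODE 44 on GRCh37. Reads carry no molecular identifiers. SnoRNAs were placed in a host by position without strand, which that table does not give.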

Additional observations from a re-analysis of the deposited data

Results flagged for a closer look

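SNHG12 differed between the eIF4A2 and DDX6 IPs by a log2 value of 0.89 in the test of the difference, higher with eIF4A2 in 3 of 3 libraries. SNHG5 differed by -1.04 and ZFAS1 by -0.69 in the same test, both lower with eIF4A2 in 3 of 3 libraries. The share of all counts on the 10 hosts was 0.201 to 0.267% in the eIF4A2 IP and 0.221 to 0.328% in the DDX6 IP, with the highest DDX6 value in replicate 2, and its part in these differences was not tested. Without DDX6 IP replicate 2, only SNHG12 of the 10 hosts was called.

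SNHG6 in CNOT1 siRNA input replicate 2 was at 15.5 CPM where the other 3 libraries of the group were at 19.6 to 20.3 CPM, a gap of 0.857 of the group's range and above Dixon's 95% critical value for 4 samples. Of 60 sets of 4 libraries examined, 1 was set apart in this way, while chance alone sets apart about 1 in 20.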

How the results depend on the processing

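Of 168 recomputed counts of called hosts, 157 stayed within 1.5 times the reported count. Between the eIF4A2 and eIF4A1 IPs, where the count was 0, DESeq2 and the fit with no filter on low counts each called 1 host and the replicate block 3. Between the eIF4A2 and DDX6 IPs the count was 5 with no filter, 6 with the block and 1 to 4 when 1 library was left out. Between the DDX6 and eIF4A1 IPs the block called 1. The CNOT1 effect in polysomal RNA was called in 0 hosts without any 1 of the libraries, in 8 without both libraries of replicate 3, and in 9 when the block was added, an alternative chosen after seeing the data. The cause was not tested beyond the CNOT1 counts of those libraries.

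Direction changed only in values that were not called under either setting. With no filter, SNHG12 in the DDX6 IP was 0.0014, GAS5 between the eIF4A2 and eIF4A1 IPs -0.022, and the ratio changes of SNHG12, SNHG16 and SNHG8 were -0.056, -0.0098 and -0.021. With the block, SNHG15 between the eIF4A2 and DDX6 IPs was 0.0007 and the ratio change of ZFAS1 0.037. Without both replicate 3 polysomal libraries the ratio changes of SNHG12, SNHG15, SNHG16 and SNHG8 were -0.045, -0.19, -0.080 and -0.28, and with the block as well -0.042, -0.20, -0.083 and -0.28. Leaving out 1 library gave SNHG12 a range of -0.27 to 0.11 in the eIF4A1 IP and -0.23 to 0.054 in the DDX6 IP. Between the eIF4A2 and eIF4A1 IPs, GAS5 ranged from -0.16 to 0.17 and SNHG15 from -0.051 to 0.32. Between the eIF4A2 and DDX6 IPs, SNHG15 ranged from -0.21 to 0.22 and SNHG7 from -0.21 to 0.11. Between the DDX6 and eIF4A1 IPs the ranges were -0.16 to 0.15 for SNHG1, -0.15 to 0.26 for SNHG12, -0.076 to 0.37 for SNHG15, -0.061 to 0.35 for SNHG16, -0.36 to 0.047 for SNHG7, -0.23 to 0.32 for SNHG8 and -0.11 to 0.37 for ZFAS1. For the ratio change they were -0.069 to 0.21 for SNHG12, -0.0024 to 0.32 for SNHG15, -0.023 to 0.24 for SNHG16, -0.14 to 0.26 for SNHG8 and -0.31 to 0.17 for ZFAS1, which was at -0.54 without both replicate 3 polysomal libraries. After TNRC6A/B siRNA they were -1.05 to 0.30 for GAS5, -0.71 to 0.033 for SNHG1, -0.61 to 0.0064 for SNHG12, -0.45 to 0.17 for SNHG6, -0.42 to 0.18 for SNHG7 and -0.38 to 0.021 for ZFAS1.

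In the RIP, input and subpolysomal comparisons, where the numbers pair the libraries, the replicate block changed no call of a host other than those given with the results. The labels tie the polysomal libraries to the others only by a number. Both fractions were pooled from sucrose gradients, so equal numbers may stand for the same gradient, which this check cannot exclude. The lowest r was -0.52 between the polysomal groups, in the replicate 3 pair that goes against its labels. It was -0.30 between the control fractions and -0.21 between the CNOT1 siRNA fractions. No polysomal library was best matched by its own number in the other siRNA group. The group means in this check included the replicate 3 libraries that go against their labels. It was not repeated without them, so it cannot settle whether the other polysomal numbers pair. In the polysomal comparisons the block left 0 hosts called for the CNOT1 effect and the ratio change as labelled. It left 10 in each comparison of fractions. In the TNRC6 libraries r was 0.821. With 2 libraries per group both pairs must give the same r, so this is a single value. The block called 0 hosts in that comparison. Of the 10 genes most like the hosts, 9 were shared when both replicate 3 polysomal libraries were left out.

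CPM on unadjusted totals and other transcript lengths moved some levels and ranks between hosts, but entered no test. IP values are shares of a library without a mock IP, so they cannot separate binding from background. A gradient value compares shares of 2 fractions and not numbers of molecules. The intervals and SEs cover only the spread among 2 to 4 libraries.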
